A study of Mus musculus with 2 samples.

Results

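Stefins are small cytosolic proteins that block cysteine proteases of the papain family, among them the lysosomal cathepsins, by wedging reversibly into the active-site cleft. In the mouse the stefin A type is encoded by a tandem cluster of copied genes, whereas stefin B comes from a separate gene that most cell types use. Neutrophils carry abundant granule proteases, and cathepsin C, a papain-family enzyme, activates their serine proteases during maturation. The 6 stefin A type genes Stfa2, Stfa2l1, Cstdc4, Cstdc5, Stfa1 and Stfa3 and the stefin B gene Cstb are described here, 7 of the 28482 genes of the deposited matrix. They were chosen by gene family, with earlier results of these data in view: the stefin A type genes had been counted mostly in neutrophils, and Cstdc5 had been among the genes with the smallest p for the inhibitor in neutrophils. Their pattern over cell types is therefore given as a description with no test, and the inhibitor values of Cstdc5 in neutrophils support nothing by themselves.

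The cells were CD45+ cells, that is leukocytes and microglia, from the spinal cords of 4 C57BL/6 mice, taken on day 15 of experimental autoimmune encephalomyelitis (EAE), a model disease in which leukocytes enter and inflame the spinal cord. In all, 2 mice were inhibitor-treated and 2 were untreated, both groups with EAE. The sources used here do not give the name, target, dose or timing of the inhibitor, any vehicle, or the age and sex of the mice. The series title also names STAP-1 mice, but each mouse analysed here is labelled C57BL/6 with no mutant allele. Each mouse carried its own antibody hashtag and all were pooled on 1 BD Rhapsody run, so that library and sequencing were shared. The mouse is the unit of replication. Levels are CPM, the counts of a gene scaled to a fixed total of the counts summed over the cells of a mouse and a cell class.

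After filtering, 5445 and 4943 cells of inhibitor-treated mice and 4322 and 4546 cells of untreated mice were kept, 19256 in all. Their counts summed to 61319993 and 58241033 against 48872954 and 53006296, and each barcode of the matrix occurred in 1 column. Neutrophils made up 7210 of the kept cells, namely 3416 and 1860 cells (62.7% and 37.6%) of the inhibitor-treated mice and 1057 and 877 cells (24.5% and 19.3%) of the untreated mice. They were found by clustering without the cystatin genes. Clusters were named from marker genes that include Csf3r and Cd3e, so the levels of these genes describe the label and do not check it. Csf3r, the G-CSF receptor, was at 704 and 680 CPM in neutrophils of inhibitor-treated mice and 681 and 650 CPM in untreated mice. The T cell gene Cd3e was at 10.9 and 10.8 against 12.6 and 10.7 CPM there. The neutrophils formed 5 clusters. A cycling cluster was led over the other neutrophil clusters by Elane, Stmn1, Top2a, Fcnb and Mki67 (427 cells). Elane and Prtn3, both among its leading genes, belong to the progenitor marker set. A second cluster was led over all other cells by Ltf, Ngp and Camp, genes of secondary granules (1285 cells). The cycling cluster was named neutrophil by a separate rule on Fcnb and the markers of that stage. Its mean log2 fold over other cells was -0.33 for neutrophil markers and 0.20 for progenitor markers. Stages were set by the mean fold of a set of markers over the other neutrophil clusters, each set named by 1 gene. In 2 clusters the set named by Mmp8, the neutrophil collagenase, was highest. One of them still carried counts of Ltf and was led by Cd55, Nt5e, Ceacam10 and Mmp8 (1604 cells), and the other was led by Ccl6, Clec4d, Prok2 and Retnlg (2490 cells). The last was led by Il1b, encoding the inflammatory cytokine interleukin-1 beta, Steap4 and Wfdc17 (1404 cells). The marker set named by Cxcl2, a chemokine gene, was highest in it, and Il1b belongs to that set. Clusters are named below by Fcnb, Ltf, Mmp8 with Ltf, Ccl6 and Cxcl2.

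The 6 stefin A type genes lie within 1 stretch of chromosome 16 (GRCm38, GENCODE M21), each with 3 exons in its main coding transcript. Stfa2l1 (chr16:36156811-36161953), Cstdc4 (chr16:36184212-36188111, annotated there as Gm5483) and Stfa1 (chr16:36276951-36285373) lie on the plus strand. Cstdc5 (chr16:36359382-36367748, annotated as BC100530), Stfa2 (chr16:36403992-36408457) and Stfa3 (chr16:36450537-36455392) lie on the minus strand. Cstb lies apart, at chr10:78425669-78427622 on the plus strand. The copies are alike enough for reads to be shared. Stfa2 and Stfa2l1 are the most alike, with 11 differing bases over their 312 coding bases (96.5% identity). The starts of both coding sequences, bases 1 to 240, are shown to give how alike they are, and capitals mark the bases that differ. Where the reads lie on the transcripts was not examined.

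Stfa2: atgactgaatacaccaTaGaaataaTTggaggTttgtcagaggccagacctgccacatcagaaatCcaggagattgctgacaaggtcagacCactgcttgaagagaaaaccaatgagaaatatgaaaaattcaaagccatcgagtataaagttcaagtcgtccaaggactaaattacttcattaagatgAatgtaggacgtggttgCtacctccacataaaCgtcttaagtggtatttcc
Stfa2l1: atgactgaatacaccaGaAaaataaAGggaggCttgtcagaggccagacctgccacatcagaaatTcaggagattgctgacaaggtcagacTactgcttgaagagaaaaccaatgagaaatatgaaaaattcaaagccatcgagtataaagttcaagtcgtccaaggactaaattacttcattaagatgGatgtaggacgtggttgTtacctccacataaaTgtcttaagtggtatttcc

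Of these 240 bases 10 differ, and a read that lies within the long run without capitals fits both genes. Over whole transcripts, 14.7% of the 50-base words of Stfa2 and 16.8% of those of Stfa2l1 also occur in another gene of the stefin A cluster. The share was 35.3% for Cstdc4, 30% for Cstdc5 and 23.9% for Stfa1, and 0% for Stfa3 and Cstb. Cstdc5 and Stfa1 share 89 such words, and Cstdc4 and Cstdc5 share 0 in spite of 80.6% coding identity. The sources used here do not say how shared reads were assigned, so that values of Stfa2, Stfa2l1, Cstdc4, Cstdc5 and Stfa1 are uncertain to that extent.

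The promoters are shown because these genes shared their pattern over cell types. Each line gives the 120 bases before the RefSeq start of the gene on its own strand (RefSeq, GRCm38.p6). The windows of Cstdc5 (chr16:36367571-36367690) and Stfa1 (chr16:36277028-36277147) lie within the GENCODE genes given above. That of Stfa2 (chr16:36408364-36408483) lies partly within its GENCODE gene. For these genes the annotations differ on the start. Capitals mark the stretches of at least 10 bases that all 6 windows hold exactly, which were found from these windows themselves.

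Stfa2: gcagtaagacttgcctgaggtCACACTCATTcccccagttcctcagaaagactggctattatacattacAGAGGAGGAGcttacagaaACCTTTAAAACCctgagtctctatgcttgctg
Stfa2l1: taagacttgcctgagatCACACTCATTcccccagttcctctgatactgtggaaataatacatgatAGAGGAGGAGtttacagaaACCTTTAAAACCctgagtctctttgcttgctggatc
Cstdc4: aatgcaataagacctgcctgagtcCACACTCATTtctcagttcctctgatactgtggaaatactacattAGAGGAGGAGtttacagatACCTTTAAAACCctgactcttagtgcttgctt
Cstdc5: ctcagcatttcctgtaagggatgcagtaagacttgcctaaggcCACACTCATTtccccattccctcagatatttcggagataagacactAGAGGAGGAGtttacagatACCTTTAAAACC
Stfa1: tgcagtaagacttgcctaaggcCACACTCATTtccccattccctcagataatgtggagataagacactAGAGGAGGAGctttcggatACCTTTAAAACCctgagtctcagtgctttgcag
Stfa3: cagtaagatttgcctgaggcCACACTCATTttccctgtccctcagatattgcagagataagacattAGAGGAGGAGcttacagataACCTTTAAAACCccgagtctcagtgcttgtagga

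The 6 windows hold CACACTCATT, AGAGGAGGAG and ACCTTTAAAACC in this order. The gap between the last pair is 9 bases in 5 windows and 10 in Stfa3. Searched on both strands of windows of the same length, CACACTCATT was in 0.0426% of 32851 promoters, AGAGGAGGAG in 0.435% and ACCTTTAAAACC in 0.0304%. All 3 on the strand of the gene were in 6 promoters (0.0183%), those of the 6 genes. The stretches were defined from these 6 windows, so their presence there was given beforehand. Other promoters held some of them. On the strand of the gene, the first was in Csta1, the last in Csta3, and the middle and last in Cstdc3, among others. Over the 250 bases before the start, identity between pairs of promoters of the 6 genes ran from 64.1% for Cstdc4 with Cstdc5 to 89.4% for Stfa2 with Stfa2l1. The matches describe letters in copied promoters and say nothing of binding.

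The 6 stefin A type genes were counted almost wholly in neutrophils, and Cstb was not. Neutrophils held 97.7% of all counts of Stfa2, 97% of Stfa2l1, 96.2% of Cstdc4, 97.6% of Cstdc5, 96.4% of Stfa1 and 97.2% of Stfa3. They held 36.4% of the counts of Cstb and 38.7% of all counts of the matrix that were kept. Single mice ran from 92.5% (Stfa2l1, untreated 2) to 99.4% (Cstdc5, inhibitor-treated 1), with 1 lower value of 85.4% for Stfa1 in untreated 1. Outside neutrophils the summed level of the 6 genes was at 9.36 to 12.9 CPM in T cells and at 9.27 to 27 CPM in microglia over the 4 mice. In B lineage cells it was at 91.2 and 13.7 CPM in inhibitor-treated mice and 28.2 and 12.6 CPM in untreated mice, and in NK cells at 77 and 4.34 against 6.17 and 11.2 CPM. Erythroid cells, with as few as 17 cells in a mouse, were at 508 and 40.7 against 223 and 84.3 CPM. In B lineage and NK cells 1 mouse, inhibitor-treated 1, stood above the other 3.

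To set shares of cells side by side, each cell was thinned to 2000 counts. Of neutrophils 32.2% (31.1 to 33.3, 95% exact binomial interval, which covers counting error only) then had a count of any of the 6 genes, against 2.23% (1.88 to 2.61) of T cells, taken as a class that should lack them. As deposited the shares were 43.8% and 7.35%, at a median of 8921 counts per neutrophil and 7202 per T cell. Thinned shares were 19.5% in neutrophils and 0.636% in T cells for Stfa2l1, 15.6% and 1.2% for Cstdc4, and 4.71% and 0.0909% for Stfa2. They were 3.46% and 0.121% for Stfa1, 2.46% and 0.136% for Cstdc5, and 2.18% and 0.121% for Stfa3. Cstb was in 12.1% of neutrophils and 9.83% of T cells. The counts of T cells divided among the 6 genes much as those of neutrophils did: Cstdc4 took 46.6% of the neutrophil counts and 51.6% of the T cell counts, and Stfa2l1 29.2% and 24.6%. Whether the T cell counts came from free RNA of neutrophils was not tested.

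Within neutrophils the summed level of the stefin A type genes was lowest on average in the cycling Fcnb cluster and highest in the Cxcl2 cluster. It averaged 45.93 ± 41.3 CPM (SD, n = 4 mice) in the Fcnb cluster, 119.8 ± 19.8 in the Ltf cluster, 663.2 ± 129 in the cluster with Mmp8 and Ltf, 1584 ± 171 in the Ccl6 cluster and 1951 ± 338 in the Cxcl2 cluster. The ranges over mice were 16.8 to 106, 92.3 to 139, 524 to 809, 1405 to 1817 and 1649 to 2422 CPM. The Fcnb and Ltf ranges overlapped, as did those of the Ccl6 and Cxcl2 clusters, while neither of the lower clusters reached the cluster with Mmp8 and Ltf and that cluster did not reach the Ccl6 cluster. The thinned share of cells with any of the 6 genes ran in the same order, at 4.45%, 10.7%, 28.6%, 41.8% and 47.6%. The median count per cell was 26630 in the Fcnb cluster, 13156 in the Ltf cluster, 10326, 7248 and 6512 in the next 3, so that the shallower clusters had the higher levels. The order of the last stages depended on how stages were set: with a gate on the stage genes in place of clusters, the mean summed level was 256.3 CPM in the Ltf stage, 1360 in the Mmp8 stage and 1088 in the Cxcl2 stage.

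**Figure D1:**
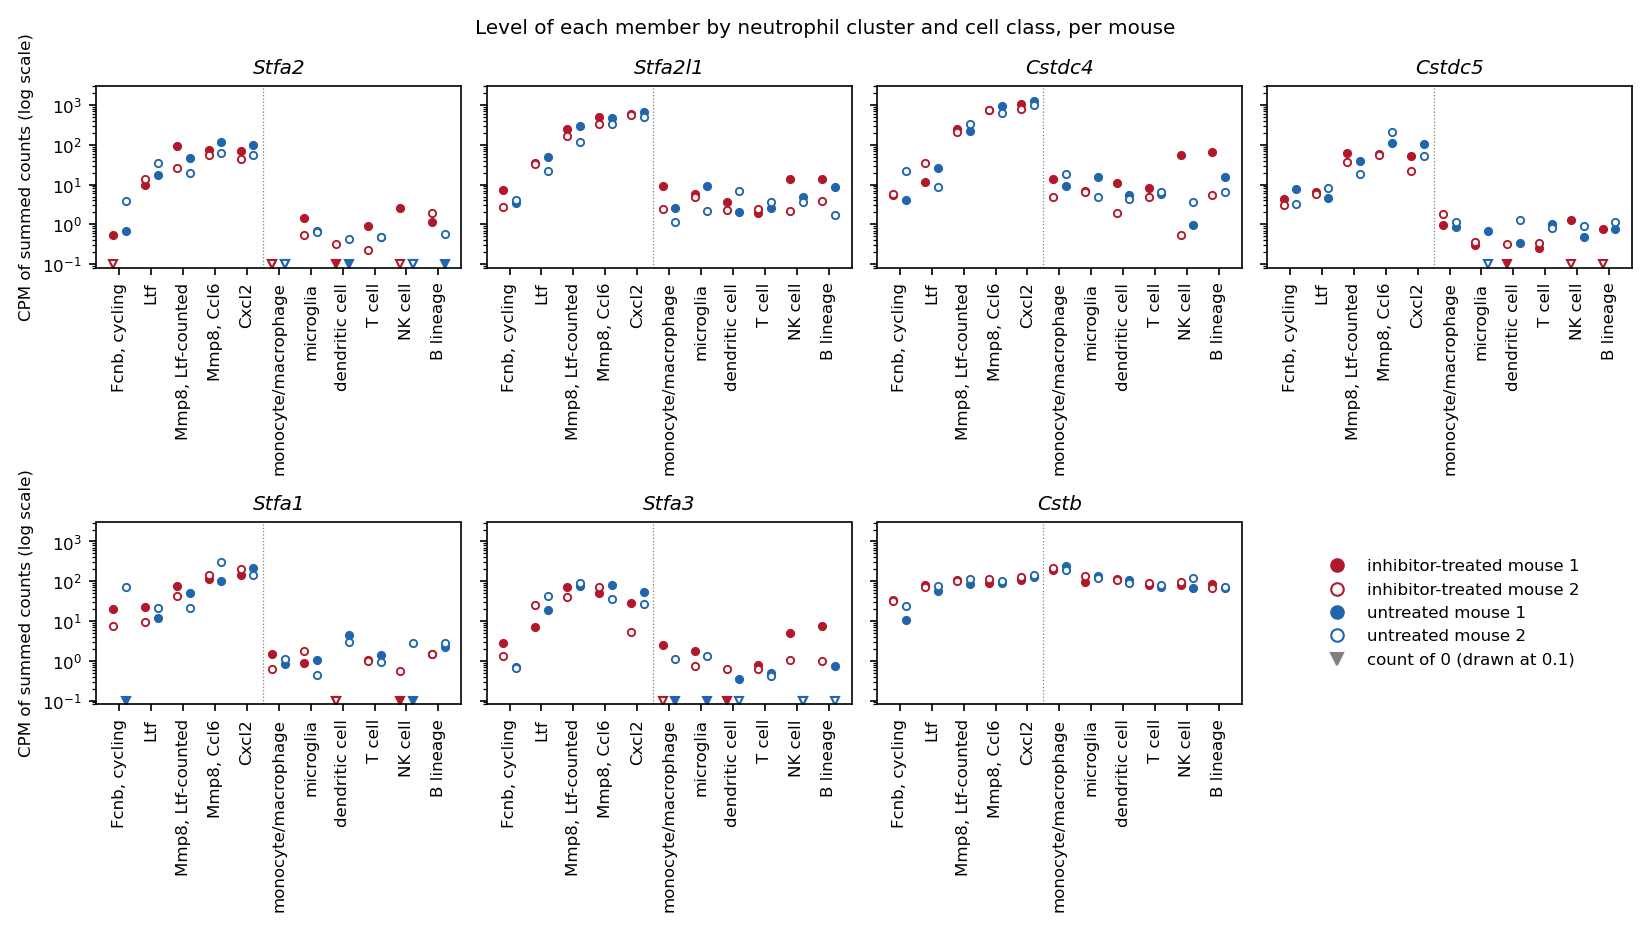
Level of each of the 7 genes in CPM (log scale) for each mouse, in the 5 neutrophil clusters (left of the dotted line) and 6 other cell classes; filled and open circles are mouse 1 and mouse 2 of a group, and triangles mark a count of 0. On average the 6 stefin A type genes are higher in the Mmp8 and Cxcl2 clusters than in the Fcnb and Ltf clusters and low right of the line, whereas Cstb is counted on both sides.

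Of the closest pair of copies, Stfa2l1 was higher in the Cxcl2 than in the Ccl6 cluster in each of the 4 mice, and Stfa2 was lower there in each. Stfa2l1 was at 7.44 and 2.68 CPM in the Fcnb cluster of inhibitor-treated mice and 3.5 and 4.17 CPM in that of untreated mice, and at 592 and 571 against 672 and 495 CPM in the Cxcl2 cluster. In the Ccl6 cluster Stfa2l1 was at 494 and 340 against 471 and 332 CPM, with both groups spanning the same range. Stfa2 was at 0.532 CPM and 0 in the Fcnb cluster of inhibitor-treated mice, where a count of 0 allows up to 1 CPM (3 counts), and at 0.699 and 3.85 CPM in that of untreated mice. It was at 72.3 and 55.4 against 116 and 60.9 CPM in the Ccl6 cluster and at 70.2 and 43.3 against 99.3 and 55.9 CPM in the Cxcl2 cluster. The mice numbered 1 were the higher of their group for Stfa2 in both clusters. The labels do not say that equal replicate numbers pair mice.

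Cstdc4 took the largest part of the counts of the 6 genes in neutrophils. It was at 5.49 and 5.69 CPM in the Fcnb cluster of inhibitor-treated mice and 4.2 and 22.5 CPM in that of untreated mice. In the Ltf cluster it was at 11.7 and 35.2 against 26.7 and 8.66 CPM, and in the Cxcl2 cluster at 1072 and 807 against 1271 and 1004 CPM. The groups overlapped in each of these clusters. Cstdc4 was the lone member of the 6 whose part of the summed count grew with every step from the Ltf cluster on: 16.8%, 35.4%, 49.5% and 53.6%. These are parts of a summed count and not levels per length, so they say how the mixture differs between clusters and not which gene is used most.

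Stfa3 went the other way, though not alone. Its level in inhibitor-treated mice was 72.4 and 41.4 CPM in the cluster with Mmp8 and Ltf, 49.6 and 71.6 CPM in the Ccl6 cluster and 28.1 and 5.3 CPM in the Cxcl2 cluster. In untreated mice it was 77.9 and 90.2, 79.2 and 35.7, and 55.1 and 26.2 CPM. Its part of the summed count was 16.5% in the Ltf cluster, 9.68% in the cluster with Mmp8 and Ltf, 3.8% in the Ccl6 cluster and 1.37% in the Cxcl2 cluster. The part of Stfa2 fell at each of these steps too, at 13.8%, 8.4%, 4.75% and 3.42%. In 2 of the 4 mice the Cxcl2 value of Stfa3 lay below its Ltf value. Part of this rests on few cells: in untreated 2, 1 cell held 209 of the 219 counts of Stfa3 in the cluster with Mmp8 and Ltf.

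Stfa1 was at 19.9 and 7.7 CPM in the Fcnb cluster of inhibitor-treated mice and at 0, which allows up to 2.1 CPM, and 71.6 CPM in that of untreated mice, the widest spread between mice of the 7 genes there. Its 358 counts made up 55.6% of the stefin A type counts of the Fcnb cluster, and 143 of them came from 1 cell of untreated 2. In the Cxcl2 cluster Stfa1 was at 140 and 200 against 217 and 144 CPM, with overlapping groups. In the Ccl6 cluster Cstdc5 was at 58.5 and 55.2 CPM in inhibitor-treated mice and 112 and 204 CPM in untreated mice, and was at 53.3 and 22.5 against 107 and 52.4 CPM in the Cxcl2 cluster. In the Ccl6 cluster both inhibitor-treated mice lay below both untreated mice. In all neutrophils 15.7% of all genes did so, and the share within the Ccl6 cluster is not given here. Cstdc5 was chosen with the contrast known, so nothing is read from this.

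**Figure D2:**
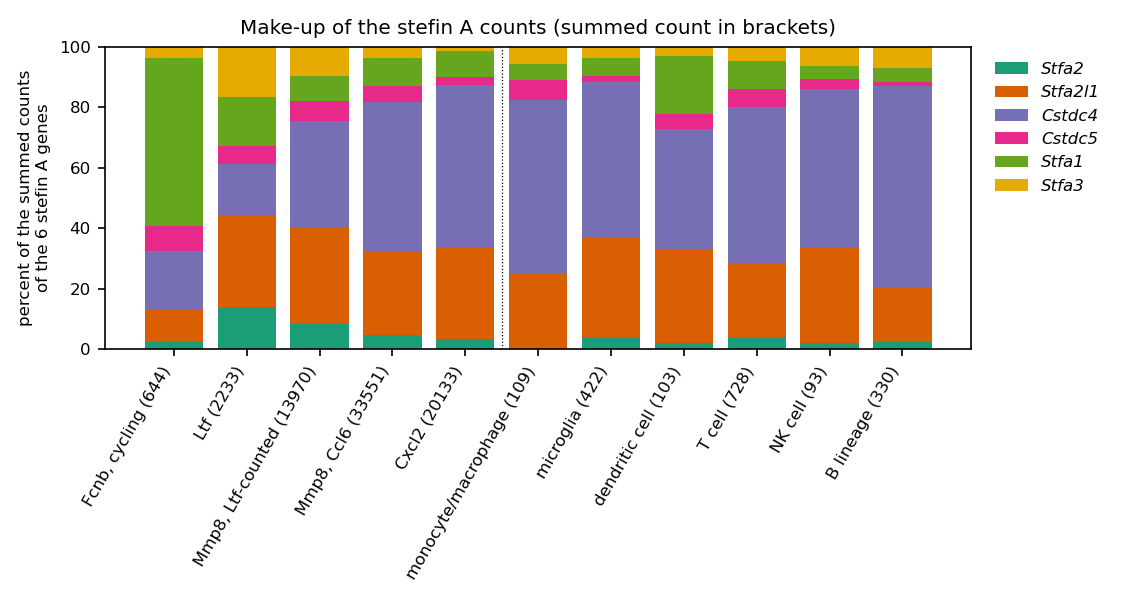
Percent of the summed counts of the 6 stefin A type genes that each gene takes (y axis), in the 5 neutrophil clusters and 6 other cell classes, with counts of the 4 mice summed and the summed count in brackets. Cstdc4 takes 16.8% in the Ltf cluster and 53.6% in the Cxcl2 cluster, Stfa3 16.5% and 1.37%, and Stfa1 55.6% in the Fcnb cluster.

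Cstb, the stefin B gene, was at a like level in neutrophils and T cells and higher in monocytes and macrophages. In neutrophils it was at 86.8 and 89.9 CPM in inhibitor-treated mice and 79 and 84.2 CPM in untreated mice, close to its 80 and 90.8 against 73 and 82.3 CPM in T cells. Over 4 mice it averaged 206.2 ± 23.8 CPM in monocytes and macrophages, 120.5 ± 18.1 in microglia, 104.7 ± 11.6 in dendritic cells, 91.95 ± 23.7 in NK cells, 84.52 ± 19.2 in plasmacytoid dendritic cells, 81.51 ± 7.36 in T cells and 72.66 ± 8.22 in B lineage cells (SD). The range in monocytes and macrophages, 187 to 238 CPM, lay above that of every other class listed, while the ranges of the other neighbours in this order overlapped. Among neutrophil clusters Cstb was lowest in the Fcnb cluster (25.15 ± 10.6 CPM) and highest in the Cxcl2 cluster (126.6 ± 14 CPM), with 70.75 ± 10.4 in the Ltf cluster and 101.6 ± 11.9 and 100.7 ± 10 in the clusters with Mmp8 and Ltf and with Ccl6. With stages set by a gate on the stage genes, the highest mean was in the Mmp8 stage (137.3 ± 44 CPM), above the Cxcl2 stage (98.57 ± 8.58 CPM).

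Counts of Stfa3, Cstdc5, Stfa1 and Stfa2 were gathered in few cells, while Stfa2l1 and Cstdc4 were spread over more. Of the 7210 neutrophils, 2010 had a count of Stfa2l1 and 1581 of Cstdc4, against 1850 with Cstb, 718 with Stfa2, 407 with Stfa1, 330 with Cstdc5 and 262 with Stfa3. The 1% of neutrophils with the highest count, 73 cells for each gene, held 79.6% of the counts of Stfa3, 77.1% of Cstdc5, 65.5% of Stfa1 and 59.8% of Stfa2. They held 28.2% of Cstdc4 and 21.2% of Stfa2l1, and 14.8% of Cstb. The highest count in 1 cell was 304 for Cstdc4, 251 for Stfa2, 216 for Cstdc5, 209 for Stfa3, 163 for Stfa1, 152 for Stfa2l1 and 23 for Cstb. The median count in cells with a count was 3 for Cstdc5 and 6 for Stfa2l1. A summed level of Cstdc5, Stfa3, Stfa1 or Stfa2 in a mouse is therefore set by few cells: the top 1% held between 62.8% (untreated 1) and 83% (inhibitor-treated 1) of the Cstdc5 counts of a mouse.

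Over all neutrophils, a cell that had 1 of the 6 genes more often had another, but not in every cluster. After thinning, Stfa2l1 was found in 75% of neutrophils with a count of Stfa2 and 16.6% of those without, as means of the 4 mice, and the 2 shares lay apart in each mouse (67.1% to 78% against 14.1% to 20.2%). This pair shares 50-base words, and the part of shared reads in the value was not tested. Stfa2l1 was found in 45.2% of cells with Cstdc4 and 14.8% of those without, a pair that shares no 50-base word. Cstdc5 was in 13.2% of cells with Stfa3 and 2.51% of those without, again a pair with no shared word, on 157 cells with Stfa3. Stfa1 was in 16.6% of cells with Cstdc5 and 3.21% of those without, a pair that does share words. Cstb was in 13.6% of cells with Stfa2 and 11.9% of those without, and for the 6 genes the shares with and without lay between 11.9% and 15.5%. These shares pool clusters in which the genes differ. Within clusters, Stfa2l1 was found in 87.1% of cells with Stfa2 and 28% of those without in the Cxcl2 cluster, 78.4% and 22.3% in the Ccl6 cluster, 67.9% and 13.1% in the cluster with Mmp8 and Ltf, and 33.1% and 4.42% in the Ltf cluster, there on 21 cells with Stfa2. With and without Cstdc4, Stfa2l1 was in 55.1% and 23.9% of cells in the Cxcl2 cluster, 45.2% and 20.3% in the Ccl6 cluster and 31.1% and 13.6% in the cluster with Mmp8 and Ltf, but in 5.83% and 4.96% in the Ltf cluster. With and without Stfa3, Cstdc5 was in 19.6% and 3.65% of cells in the Cxcl2 cluster and 21% and 3.39% in the Ccl6 cluster, but in 1.14% and 2.44% in the cluster with Mmp8 and Ltf and 0% and 0.662% in the Ltf cluster, on 45 and 16 cells with Stfa3. In the Fcnb cluster at most 6 cells had Stfa2, Cstdc4, Stfa3 or Cstdc5 each, and none of these also had the partner gene named here. As deposited, 56.2% of neutrophils had none of the 6 genes and 4 cells had all 6, while 92.7% of T cells had none.

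**Figure D3:**
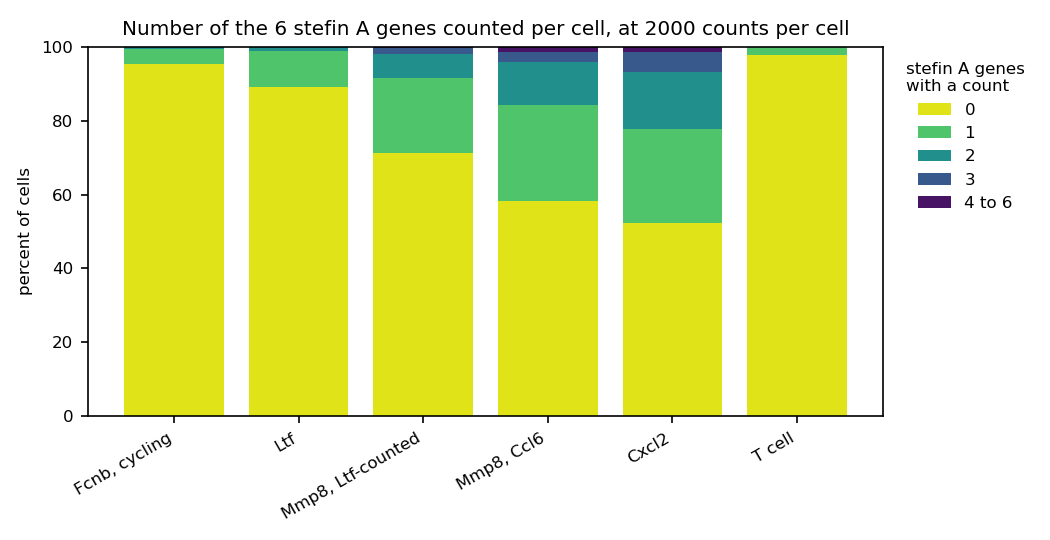
Percent of cells (y axis) with a count of 0, 1, 2, 3 or 4 to 6 of the stefin A type genes after each cell was thinned to 2000 counts, in the 5 neutrophil clusters and in T cells. The share with none is 95.6% in the Fcnb cluster and 52.4% in the Cxcl2 cluster, and 97.8% in T cells.

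Likeness of pattern was measured as Pearson's r of log2(CPM + 1) over the means of 15 cell classes and neutrophil clusters, among 12362 genes; the points share 1 run and r is a description. For the sum of the 6 genes the nearest were Mirt2 (r = 0.984), a long noncoding RNA, Asprv1 (0.983), a retroviral-like aspartic protease, Cxcr2 (0.973), the receptor for neutrophil-attracting CXC chemokines, Retnlg (0.971), a resistin-like secreted protein, and Prok2 (0.971), a prokineticin. Pairs of the 6 genes ran from 0.811 (Stfa1 with Stfa3) to 0.978 (Cstdc4 with Stfa2l1). Cstb had r between -0.19 and 0.173 with them. Its nearest genes were Lipa (0.87), lysosomal acid lipase, Casp1 (0.868), the inflammatory caspase, Fbxl18 (0.844), Ndufaf7 (0.844) and Fbxo38 (0.842).

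The inhibitor contrast was fitted first over all kept cells. The summed level of the 6 genes was 561 and 272 CPM in inhibitor-treated mice against 269 and 182 CPM in untreated mice, and the share of neutrophils among the cells moved with it (62.7% and 37.6% against 24.5% and 19.3%). None of the 7 genes passed edgeR's quasi-likelihood test at an adjusted p of 0.05, nor did any of the 21157 genes tested (0%). The log2 fold changes of inhibitor-treated over untreated were 1.33 ± 0.52 (SE) for Stfa2l1, 1.15 ± 0.42 for Cstdc4, 1.13 ± 0.60 for Stfa2, 0.92 ± 0.33 for Stfa1, 0.92 ± 0.35 for Stfa3, 0.58 ± 0.43 for Cstdc5 and 0.25 ± 0.15 for Cstb, at adjusted p between 0.478 and 0.644 with edgeR. An unadjusted p under 0.05 was found for 4 of the 7 genes and 9.87% of all genes. The CPM of both inhibitor-treated mice lay above both untreated mice for Cstdc4, Stfa1 and Stfa3, 3 of the 7 genes, as for 12.9% of all genes. More neutrophils and more transcript per neutrophil cannot be told apart in these sums. Without inhibitor-treated 1 the log2 fold change was -0.03 for Stfa2 and -0.29 for Cstdc5, and without inhibitor-treated 2 all 6 stefin A type genes passed (adjusted p 0.0162 to 0.0407 with edgeR), as did 1984 of 22037 genes (9%), with inhibitor-treated 1 as the lone mouse of its group.

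Within neutrophils, 6 of the 7 log2 fold changes were negative and none passed. Cstdc5 was at 37.4 and 28.6 CPM in inhibitor-treated mice and 60.4 and 52.6 CPM in untreated mice, with groups that did not overlap (log2 fold change -0.80 ± 0.16 SE, edgeR adjusted p = 0.969). By unadjusted p (0.00131) it ranked 10 of 14871 genes. Stfa3 was at 34.5 and 36.4 against 56.2 and 38.1 CPM (-0.43 ± 0.18, unadjusted p = 0.0495 with edgeR); the inhibitor-treated mice lay just below the lower untreated one. These 2 of the 7 genes had an unadjusted p under 0.05 as lower, as did 2.95% of all genes, and the same 2 had both inhibitor-treated mice below both untreated mice, as did 15.7% of all genes. The contrast was known when the genes were chosen, so nothing is read from these counts. No gene of the 14871 passed the adjusted threshold (0%).

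In 4 of the remaining 5 genes the groups overlapped. Stfa1 was at 70.7 and 74.9 CPM in inhibitor-treated mice and 73.1 and 103 CPM in untreated mice (-0.30 ± 0.18), and Stfa2 at 50 and 29.5 against 64.3 and 32.2 CPM (-0.29 ± 0.33). Cstdc4 was at 385 and 347 against 509 and 325 CPM (-0.21 ± 0.19), and Stfa2l1 at 265 and 202 against 316 and 159 CPM (-0.04 ± 0.28). Each of these differences was smaller than 2 of its standard errors. Cstb was at 86.8 and 89.9 against 79 and 84.2 CPM (0.09 ± 0.11), with both inhibitor-treated mice above both untreated mice, as for 18.5% of all genes. Adjusted p with edgeR lay between 0.969 and 0.995 for the 7 genes. Their median log2 fold change was -0.29, against -0.01 over all genes tested. With the mixture of neutrophil stages fixed at the mean of the 4 mice, the ratio of group means was -0.84 (log2) for Cstdc5, -0.42 for Stfa3, -0.30 for Stfa1, -0.22 for Stfa2, -0.17 for Cstdc4, 0.02 for Stfa2l1 and 0.08 for Cstb, close to the values above.

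**Figure D4:**
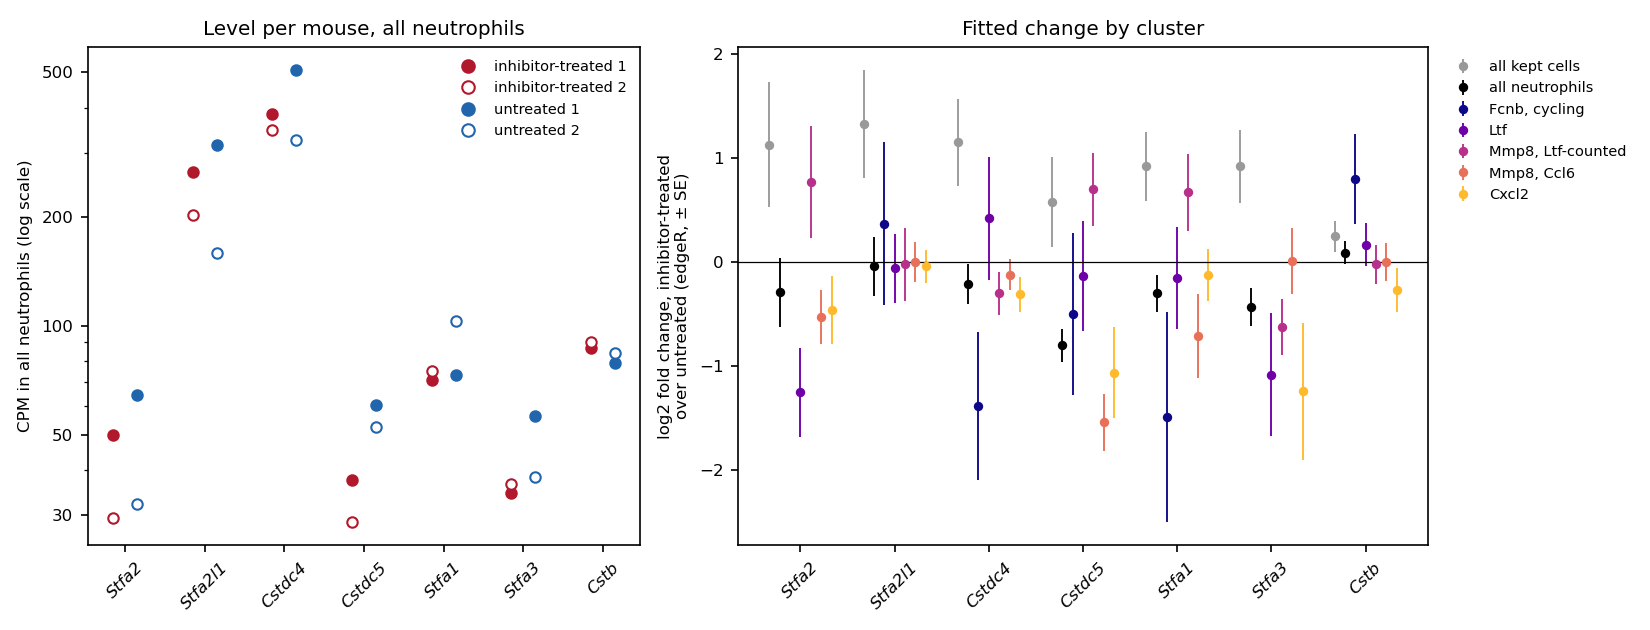
Left, level in all neutrophils in CPM (log scale) for each mouse, inhibitor-treated in red and untreated in blue. Right, log2 fold change of inhibitor-treated over untreated with its standard error from edgeR, for each gene in all kept cells, all neutrophils and each neutrophil cluster; all kept cells lie above 0 for the 7 genes, and the values by cluster lie on both sides of 0.

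Cstdc5 was also compared cluster by cluster. In the Ccl6 cluster it was at 58.5 and 55.2 CPM in inhibitor-treated mice and 112 and 204 CPM in untreated mice (log2 fold change -1.54 ± 0.27 SE, unadjusted p = 0.000255, adjusted p = 0.528 with edgeR), and ranked 5 of 10341 genes, of which 2.79% had an unadjusted p under 0.05 as lower and 0% passed. In the cluster with Mmp8 and Ltf the sign was the other way, at 60.9 and 37.9 against 39.3 and 18.9 CPM (0.70 ± 0.35, adjusted p = 0.913 with edgeR; 0% of all genes passed). Both clusters together gave -0.90 ± 0.22 (unadjusted p = 0.00302, adjusted p = 0.897 with edgeR, where 2.79% of all genes were under 0.05 as lower and 0% passed). The Cxcl2 cluster gave -1.06 ± 0.44, the Fcnb cluster -0.50 ± 0.78 and the Ltf cluster -0.13 ± 0.53, none of which passed. Few cells carry these values. In the Ccl6 cluster 53 and 35 cells of inhibitor-treated mice and 27 and 23 cells of untreated mice had a count of Cstdc5, and 1 cell of untreated 2 held 169 of its 504 counts. As a thinned share of all neutrophils, Cstdc5 was in 2.2% (1.73 to 2.75) and 1.88% (1.32 to 2.61) of cells of inhibitor-treated mice and in 3.6% (2.56 to 4.9) and 3.31% (2.23 to 4.73) of cells of untreated mice (95% exact binomial intervals). In settings chosen after the data were seen, the Ccl6 value passed without a filter on low counts (adjusted p = 1.29e-11 with edgeR), where 0.256% of all genes passed, and with DESeq2 (adjusted p = 4.36e-05), where 0.0794% did. It also passed without each mouse in turn (log2 fold change -1.96 to -0.98). With all 4 mice and the main settings it did not pass (adjusted p = 0.528 with edgeR). Cstdc5 was chosen with the contrast known, so passing in these later settings supports nothing by itself. Each fit without a mouse leaves 1 mouse in a group, which is assumed to vary like the other group. The share of all genes that passed was then 0.131% without inhibitor-treated 1, 0.186% without inhibitor-treated 2, 4.08% without untreated 1 and 0.577% without untreated 2. With stages set by a gate on stage genes in place of clusters, the Mmp8 stage gave 1.60 for Cstdc5 (adjusted p = 1 with edgeR). Without untreated 1 or untreated 2, Cstdc5 passed in all neutrophils (adjusted p = 0.0369 and 0.0193 with edgeR), as did 2.16% and 0.212% of all genes, with the lone untreated mouse assumed to vary like the other group.

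In the remaining stage fits no member passed. In the Fcnb cluster 5 of the 7 genes passed the filter on low counts, which left out Stfa2 and Stfa3, and 0.00991% of all genes were called. Cstb there was at 34.6 and 31.2 CPM in inhibitor-treated mice and 10.5 and 24.4 CPM in untreated mice (0.80 ± 0.43, adjusted p = 0.999 with edgeR). In the Ltf cluster (0% of all genes called) Stfa2 was at 9.62 and 13.6 against 16.9 and 35 CPM (-1.25 ± 0.43) and Stfa3 at 7.07 and 24.7 against 18.5 and 43.3 CPM (-1.08 ± 0.59). In the Cxcl2 cluster (0% called) Stfa3 was at 28.1 and 5.3 against 55.1 and 26.2 CPM (-1.24 ± 0.66). In T cells (0% of all genes called), where the counts lie at the level described above, Cstdc5 was at 0.255 and 0.345 CPM in inhibitor-treated mice, on 2 and 5 cells with a count, and at 1.03 and 0.795 CPM in untreated mice, on 15 and 16 cells (-1.52 ± 0.69, adjusted p = 1 with edgeR). The sign in T cells was that in neutrophils for Cstdc5, Stfa2l1 (-0.52 in T cells), Stfa1 (-0.21) and Cstb (0.15). It was the opposite for Cstdc4 (0.06) and Stfa3 (0.61), and Stfa2 was not tested in T cells.

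The proteases that stefins block were measured in the same neutrophils. Of 10 papain-family cathepsin genes 9 were tested and 0 passed, with a median log2 fold change of -0.24. Ctsb, encoding cathepsin B, was at 127 and 148 CPM in inhibitor-treated mice and 126 and 175 CPM in untreated mice (-0.16 ± 0.18 SE), and Ctsh, encoding cathepsin H, at 120 and 134 against 117 and 115 CPM (0.12 ± 0.11). Ctsz, encoding cathepsin Z, was at 63.4 and 64.7 against 77.9 and 71.1 CPM (-0.24 ± 0.11). Ctss, encoding cathepsin S, was at 49.8 and 54.2 against 96.5 and 81.7 CPM (-0.80 ± 0.13, unadjusted p = 0.000356, adjusted p = 0.969 with edgeR). Ctsc, encoding the cathepsin C that activates granule serine proteases, was picked after its values were seen and was at 16.8 and 18.3 against 28.2 and 27.7 CPM (-0.70 ± 0.15). Ctss and Ctsc were the 2 cathepsin genes with an unadjusted p under 0.05 with edgeR, both as lower, as were 2.95% of all genes. In these 2 genes and in Ctsz both inhibitor-treated mice lay below both untreated mice, as for 15.7% of all genes.

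Of the other cystatin genes, 10 of the 28 listed have a row in the matrix, 6 were tested and 0 passed (median 0.02). Cst3, encoding the secreted inhibitor cystatin C, was at 552 and 575 CPM in inhibitor-treated mice and 669 and 575 CPM in untreated mice. Csta2, a further copy of the stefin A cluster, was at 4.35 and 3.72 against 6.41 and 7.55 CPM (-0.81 ± 0.25). It and its neighbour Csta3, picked after its values were seen (-1.34 ± 0.49), were the 2 with an unadjusted p under 0.05. Both were lower, as were 2.95% of all genes at that limit. Of 14 serine protease inhibitor genes of leukocytes 9 were tested and 0 passed (median 0.01), with Slpi, the secretory leukocyte protease inhibitor, at 2103 and 1989 against 2167 and 1708 CPM and Wfdc21, a related whey acidic protein gene, at 2301 and 2247 against 2050 and 2365 CPM. All 4 neutrophil serine protease genes were tested and 0 passed (median 0.04): Prtn3, encoding proteinase 3, was at 117 and 109 against 97.8 and 192 CPM and Elane, encoding neutrophil elastase, at 101 and 113 against 57.9 and 111 CPM.

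Signs of RNA quality and of another cell type moved with the groups in neutrophils. The median mitochondrial share of counts was 1.65% and 1.6% in inhibitor-treated mice and 2.11% and 2.96% in untreated mice, and all 13 mitochondrial genes had a negative log2 fold change (median -0.55; 12 with an unadjusted p under 0.05, 0 passing with edgeR). All 10 microglia markers were negative too (median -0.75, 7 with an unadjusted p under 0.05, 0 passing with edgeR). Of all genes 2.95% had an unadjusted p under 0.05 as lower. Their summed level in neutrophils was 103 and 95.6 CPM in inhibitor-treated mice and 166 and 164 CPM in untreated mice, and none of the 10 was at 0 in a mouse. The mitochondrial genes summed to 16682 and 19417 against 21053 and 28816 CPM. The median count per neutrophil was 8706 and 8862 in inhibitor-treated mice and 8630 and 10429 in untreated mice. The part of any of these in the values of Cstdc5, Stfa3, Ctss, Ctsc and Csta2 was not tested. In microglia the 6 stefin A type genes summed to 17.1 and 15 CPM in inhibitor-treated mice and 27 and 9.27 CPM in untreated mice. The levels of Ctss and Ctsc in microglia are not given here.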

How the data were processed

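Single-cell RNA sequencing was done on 1 BD Rhapsody run with TAS-Seq amplification, about 28678 cells loaded, per the labels' protocols. The deposited matrix holds whole-number counts per gene and cell, made by the authors. The submitters' processing notes name the GRCm38 build, and the sources used here name no aligner. In 44 highly counted genes, Mmp8, Cxcl2, Ltf, Fcnb, Retnlg, Cst3 and Elane among them but none of the 7, no nonzero count is under 4, so that their shares of cells with a count are understated if low counts were set to 0. Hashtags in the column names gave the mouse. The hashtag library itself was not analysed here.

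Columns with more than 1 hashtag (3943 of 25461) were left out, then 1014 cells over 20% mitochondrial counts, and the 1248 cells that most resembled multi-hashtag columns as likely doublets within a mouse. Clustering (Leiden, resolution 1.0, 2000 variable genes, 40 components, 20 neighbours; leidenalg 0.10.2) left out 15 cystatin genes and gave 23 clusters. Counts summed per mouse and class were tested with edgeR 4.0.16 in R 4.3.3 (quasi-likelihood, TMM, filterByExpr, Benjamini-Hochberg adjustment over all genes tested), 2 mice a group, with DESeq2 1.42.0 as an alternative. The fits were tested on simulated data. Intervals are exact binomial ones.

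The members and lists were chosen with earlier results of these data known. Named besides the 7 genes are the highest counted genes of each list and the 5 genes nearest by correlation. The labels do not say that equal replicate numbers pair the mice, and the main fits treat them as unpaired. Correlations of same-numbered deviations ran from -0.028 to 0.017, which cannot exclude that same-numbered mice were handled together. Whether mice of a group shared a cage or day is not given, so p-values measure the spread between these mice. Other settings (scaling, filter, doublets, mitochondrial limit, thinning, stages, each mouse left out) are given at the end.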

Additional observations from a re-analysis of the deposited data

Results flagged for a closer look

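Cstb had groups that lay apart in opposite directions in 2 neutrophil clusters. It was found by searching the 7 genes over the 5 clusters for such a pattern. Lying apart is common with 2 mice a group: in all neutrophils 15.7% of all genes did so as lower and 18.5% as higher. The shares within these 2 clusters are not given here, so nothing is read from the flag. In the cycling Fcnb cluster both inhibitor-treated mice (34.6 and 31.2 CPM) lay above both untreated mice (10.5 and 24.4 CPM), with a log2 fold change of 0.80. In the Cxcl2 cluster both inhibitor-treated mice (108 and 126 CPM) lay below both untreated mice (131 and 141 CPM), with a log2 fold change of -0.27. Neither passed with edgeR (adjusted p = 0.999 and 0.952), and the difference between the clusters was not tested. The untreated mice had 52 and 90 cells in the Fcnb cluster, and with scored doublets kept the value there was -0.16.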

How the results depend on the processing

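Of 468 log2 fold changes under other settings, 394 kept their sign and side of the threshold, 27 newly passed and 47 changed sign. The causes were not tested. This tally covers the 7 genes in all cells, all neutrophils and the 4 stages. For the 2 clusters of the Mmp8 stage fitted apart it holds Cstdc5 only. The changes of the other genes in those clusters are given below and are not in the tally. Genes passing (members in brackets) with DESeq2 numbered 446 (1, Stfa2l1) in all cells, 4 in neutrophils, 2 in the Fcnb cluster, 2 in the Ltf cluster and 11 (1, Cstdc5) in the Mmp8 stage. With no filter they numbered 78 (1, Cstdc5) in neutrophils, 6 in the Fcnb cluster, 63 (1, Cstdc5) in the Mmp8 stage and 19 in the Cxcl2 cluster. With scored doublets kept, 1 passed in neutrophils and 9 in the Mmp8 stage, where 7 passed after thinning. The gate left 0 in the Fcnb stage, against 1. With the replicate block 24 passed in the Mmp8 stage (0 members), and Stfa2l1 was at 0.02 in neutrophils and 0.01 in the Mmp8 stage; no member was called under the block.

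Leaving out 1 mouse gave 0 to 6 members and 0 to 1984 genes in all cells, 0 to 3 and 0 to 360 in neutrophils, 0 to 1 and 1 to 31 in the Fcnb cluster, 0 to 1 and 4 to 66 in the Ltf cluster, 0 to 2 and 2 to 512 in the Mmp8 stage and 0 to 2 and 0 to 86 in the Cxcl2 cluster. The lone mouse of a group is then assumed to vary like the other group. Without untreated 1, edgeR's adjusted p was 0.023 for Stfa1 in neutrophils, 0.000685 for Stfa1 in the Fcnb cluster, 0.019 for Stfa2 in the Ltf cluster, and 9.12e-08 for Cstdc5 and 4.06e-06 for Stfa1 in the Mmp8 stage. Without untreated 2 it was 0.0195 for Cstdc4 and 0.0426 for Stfa3 in neutrophils, and 0.00424 for Cstdc5 and 0.0225 for Stfa3 in the Cxcl2 cluster.

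Signs that turned when 1 mouse was left out had these ranges. In all cells Stfa2 ran from -0.03 to 1.78 and Cstdc5 from -0.29 to 1.13. In neutrophils Stfa2 ran from -0.71 to 0.28, Stfa2l1 from -0.44 to 0.53 and Cstdc4 from -0.48 to 0.14. In the Fcnb cluster Stfa2l1 ran from -0.57 to 0.90, Cstdc4 from -2.07 to 0.41 and Cstdc5 from -1.02 to 0.16. In the Ltf cluster Stfa2l1 ran from -0.50 to 0.53, Cstdc4 from -0.58 to 1.30, Cstdc5 from -0.50 to 0.48, Stfa1 from -0.91 to 0.49 and Cstb from -0.05 to 0.47. In the Mmp8 stage Stfa2 ran from -0.61 to 0.52, Stfa2l1 from -0.30 to 0.38 and Stfa1 from -0.86 to 0.27, and in the Cxcl2 cluster Stfa2l1 from -0.18 to 0.14 and Stfa1 from -0.41 to 0.15. With its clusters fitted apart, which was added after the data were seen, the cluster with Mmp8 and Ltf gave -0.35 to 1.53 for Stfa2, -0.48 to 0.75 for Stfa2l1, -0.58 to 0.08 for Cstdc4 and -0.23 to 0.26 for Cstb. The Ccl6 cluster gave -1.32 to 0.30 for Stfa1, -0.33 to 0.13 for Cstdc4, -0.27 to 0.24 for Stfa2l1, -0.40 to 0.65 for Stfa3 and -0.16 to 0.17 for Cstb. There Stfa1 passed without untreated 1 (edgeR's adjusted p = 1.01e-15, with 491 genes passing) and with no filter (0.0462, with 58), and Stfa2 without untreated 2 (0.0139, with 70).

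Other turned signs were Stfa2l1 at 0.01 in neutrophils and 0.12 in the Cxcl2 cluster and Cstdc5 at 0.05 in the Ltf cluster with a mitochondrial limit of 10%. Stfa2l1 was at 0.01 in the Mmp8 stage with DESeq2, and at 0.02, 0.03 and 0.03 in the Ltf, Mmp8 and Cxcl2 stages with no filter. With doublets kept Cstb was at -0.16 in the Fcnb cluster, Stfa2l1 at 0.02 and Cstdc4 at -0.23 in the Ltf cluster, and Stfa2l1 at 0.03 in the Cxcl2 cluster. Thinning gave Cstb -0.08 in neutrophils and -0.39 in the Ltf cluster. The gate gave Cstdc4 -0.69, Cstdc5 0.76 and Stfa1 0.47 in the Ltf stage, and Cstdc4 0.93, Cstdc5 1.60, Stfa1 1.20 and Stfa3 0.61 in the Mmp8 stage. It set the summed level of the 6 genes at 256.3, 1360 and 1088 CPM in the Ltf, Mmp8 and Cxcl2 stages, and Cstb at 137.3 and 98.57 CPM in the Mmp8 and Cxcl2 stages. Clustering at resolution 0.6, with no separate Mmp8 stage, gave 399.9 CPM for the sum in the Ltf stage, and 86.55 and 109.2 CPM for Cstb in the Ltf and Cxcl2 stages. Thinned shares were 32.2% of neutrophils and 2.23% of T cells for any of the 6 genes, and 12.1% and 9.83% for Cstb. Thinning left no member value in the Fcnb cluster.

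Few cells carry most counts of Cstdc5, Stfa3, Stfa1 and Stfa2, so 2 mice a group limit what these sums can show.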
